A study of Mus musculus with 4 samples.

Results

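Fatty acids and retinoids dissolve poorly in water and are carried by small binding proteins. Fatty acid binding proteins (FABPs) carry long-chain fatty acids inside cells to membranes, mitochondria and nuclear receptors. The cellular retinoic acid binding proteins CRABP1 and CRABP2 carry retinoic acid in the cytoplasm, and retinol binding protein 4 (RBP4) carries retinol in blood. In the eye, retinoids serve vision in the retina and, as retinoic acid, regulate genes during eye development. The 7 genes described are Fabp3, Fabp4, Fabp5, Fabp7, Crabp1, Crabp2 and Rbp4, taken as all array probes with these symbols, which gave 8 of 45263 probes. Fabp3 was chosen by its rise in the contrast between knockout and Control lenses, so its difference is given as a description and without a test. The other 6 genes are of the same or related families.

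CELF1 is an RNA-binding protein that acts on the splicing, stability and translation of messenger RNA. Lenses of mice at postnatal day 6 were compared between Celf1 conditional knockout mice (cKO, arrays A and B) and Control mice (arrays A and B), with total RNA of 1 lens on each Illumina MouseWG-6 array. The cKO mice carry a germline null lacZ knock-in allele of Celf1 (Celf1 lacZKI), an allele with loxP sites around an exon (Celf1 flox) and the transgene Pax6GFPCre, which drives Cre recombinase in the lens lineage from the lens placode stage and also in the pancreatic lineage. The Control mice carry Celf1 lacZKI beside a wild-type allele, so both groups have the null allele and differ in the second one. All mice were on a mixed C57BL/6J and FVB background. Whether Controls carried Cre, and the sex of the mice, are not stated in the sources used here. In whole lenses, fewer cells of a type and less RNA per cell cannot be told apart.

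The Fabp3 result rests on 1 probe of 50 bases. It is shown because its letters include the end of a reading frame, with the stop codon in capitals at bases 38 to 40 and 10 bases after it. The probe lies on the plus strand at chr4:129992430-129992479, in coordinates of the files, which name no genome build. RefSeq also lists a pseudogene, Fabp3-ps1, and whether the probe matches it was not tested.
Fabp3 probe: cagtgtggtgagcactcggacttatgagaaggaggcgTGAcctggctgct
Fabp5 had a pair of overlapping probes on the plus strand of chromosome 3, which share 33 bases. Only the bases that the probes do not share are printed, because the first probe was bright on every array and the other was at background on every array. The first probe has its own 17 bases at chr3:10016494-10016510, and the other has its own 17 bases at chr3:10016544-10016560.
Fabp5 probe 1: gccccgtcatttaagct
Fabp5 probe 2: aattgagactattccta
GC content was 40.0% for the bright Fabp5 probe, 32.0% for the dim one and 58.0% for the Fabp3 probe.

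Brightness differed between the groups. Detected probes numbered 16261 to 16925 per array in cKO and 14180 to 14542 in Control, where detected means a detection p-value under 0.05 against negative control beads. Log2 values below are background-corrected and quantile-normalized across arrays, which removes this difference in overall brightness. Celf1 itself was 7.45 and 6.95 in cKO and 8.71 and 8.55 in Control, a difference of −1.43 ± 0.19 (log2, standard error, n = 2 per group, limma adjusted p = 0.0099), and without Control B the difference was −1.53 (limma adjusted p = 0.0564). The X-linked transcript Xist, detected on the cKO arrays alone, was at least 6.09-fold higher there (limma adjusted p = 0.000913). The Y-linked Ddx3y was 6.81 and 4.82 in cKO and 8.99 and 8.82 in Control (−3.09 ± 0.55, limma adjusted p = 0.0197). Genotype and the sex-linked transcripts thus varied together, and their parts in any difference below cannot be told apart. Of 11 lens fiber markers on the array, 10 were detected on every array, and so were 7 of 8 lens epithelium markers. Array cKO B stood apart in other markers: 4 of 6 cornea and skin epithelium genes were detected on it and 0 on the other 3 arrays, and its summed vessel marker level was 4456 (normalized intensity) against 2053 to 2832. Among the vessel markers, Acta2 was 8.88 on cKO B, 7.36 on cKO A and 8.11 and 8.07 in Control. On cKO B against cKO A, Cldn5 was 8.01 against 7.98 and Flt1 6.21 against 6.18. Cdh5 (5.19 against 5.38) and Tek (6.35 against 6.46) were lower on cKO B, so the vessel list did not rise as a whole.

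Among the members, Fabp3 was far higher in cKO, Fabp5 was the bright member on every array and was lower in cKO after normalization, and Crabp2 lay just above background everywhere. Fabp4, Fabp7, Crabp1 and Rbp4 were detected on 0 of 4 arrays. A gene was tested where a probe was detected on at least 2 arrays, which held for 3 of the 7 members, and 11516 genes were tested in all. To be called changed, a gene needed a limma adjusted p below 0.05, a log2 difference beyond 0.58 in either direction and a mean log2 value above 4.6. By this rule 11.7% of all genes tested were called, 6.02% elevated and 5.64% reduced in cKO. Fabp5 passed this rule and Crabp2 did not. Fabp3 was chosen by this contrast, so the rule is no test of it, and the filter removed 4 members, so nothing is read from a count over the members.

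**Figure D1:**
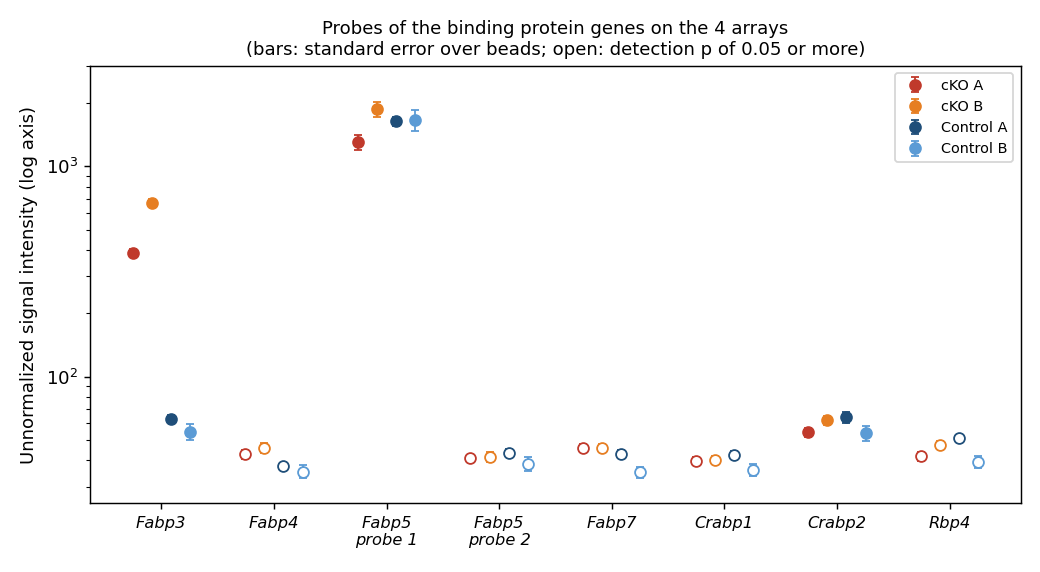
Unnormalized signal intensity (log axis) of the 8 probes of the 7 binding protein genes on the 4 arrays, with bars for the standard error over beads and open circles where the probe was not detected. Fabp3 is the probe with the widest gap between the groups, and the 5 probes with open circles all sit between 35.1 and 50.9.

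Fabp3, the heart-type FABP, is known from heart and skeletal muscle, where it carries fatty acids that are oxidized in mitochondria. Its unnormalized intensity was 386.4 on cKO A, 667 on cKO B, 63 on Control A and 54.9 on Control B, each with a standard error over beads of 30.1 or less. The probe was detected on all 4 arrays, but on the Control arrays it was only just above background, with detection p-values of 0.01068 and 0.00855. Its normalized log2 values were 8.11 and 8.83 in cKO and 5.17 and 5.23 in Control. Both cKO values lay above both Control values, and the cKO arrays differed from each other more than the Control arrays did. The group means were 8.47 ± 0.51 and 5.20 ± 0.038 (SD, n = 2), a difference of 3.27 ± 0.24 (log2, standard error), or 9.67-fold. It was the fifth-largest rise among the genes tested, which is how it came to be described. The difference was 2.84 without cKO B and 3.58 without cKO A. With the 17 other settings that kept all 4 arrays it ranged from 2.46 to 3.93 and was positive in all of them.

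**Figure D2:**
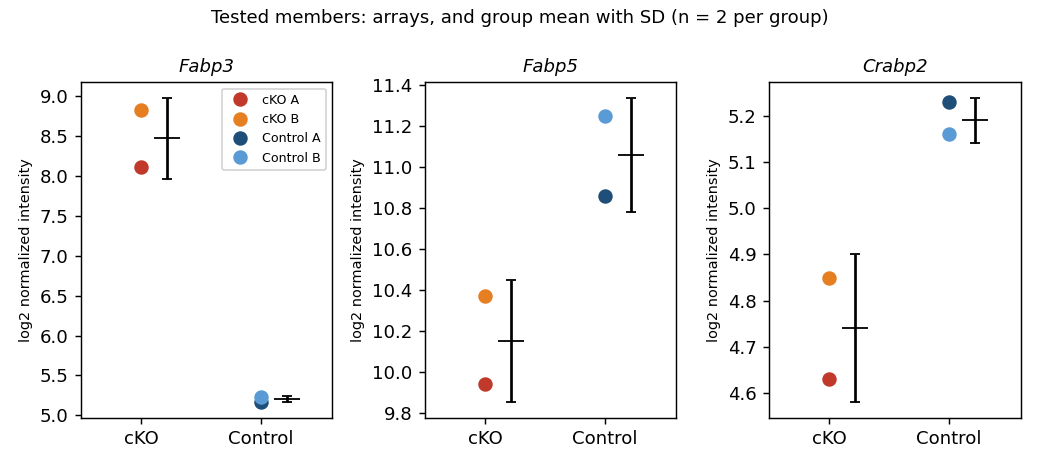
Normalized log2 intensity of Fabp3, Fabp5 and Crabp2 on each array (points), with the group mean and SD beside them (n = 2 per group, separate axes). In each panel the cKO and Control points do not overlap, which held for 62.3% of all genes tested, and Fabp3 was chosen by this contrast. Fabp3 is higher in cKO, and Fabp5 and Crabp2 are lower.

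Skeletal muscle markers were set beside Fabp3, since muscle is a known site of its expression. Of 10 on the array, 3 to 4 were detected on each array, and Ckm, Acta1, Myh1, Myh4, Tnni2 and Tnnt3 were detected on none. Their summed level was 342 and 334 in cKO and 337 and 365 in Control. This sum, like those of the macrophage and retinal glia markers below, includes undetected probes. It therefore holds background and cannot decide whether the list was higher in cKO. By limma 0 of its 4 tested genes were called, and 1 (Mb, lower in cKO) had an unadjusted p under 0.05. At that threshold stood 31.9% of all genes tested, 16.9% higher and 15.1% lower in cKO. Of 9 macrophage markers, 5 and 7 were detected in cKO and 2 and 3 in Control, where fewer probes were detected overall (14180 to 14542 against 16261 to 16925). Their summed levels were 381 and 398 in cKO and 356 and 370 in Control. Of 5 tested, 3 were higher and 2 lower in cKO, and 40% were called against 11.7% of all genes. Cd68 (at least 1.26-fold, limma adjusted p = 0.0376) and C1qb (at least 1.22-fold, limma adjusted p = 0.0216) were elevated, each detected in cKO alone. C1qc (limma adjusted p = 0.204), Csf1r (−0.11, limma adjusted p = 0.639) and Aif1 (−0.064, limma adjusted p = 0.791) were not called, and Adgre1 and Cd14 were detected on no array. Retinal glia markers were detected for 4 of 6 genes on each cKO array and for 2 on each Control array, with summed levels of 295 and 357 against 278 and 290. In that list Apoe, a lipoprotein component also made by macrophages, was elevated by at least 2.5-fold (limma adjusted p = 0.0137) and Gfap was reduced (limma adjusted p = 0.0436). Aqp4 and Slc1a3 were not called, so 50% of the tested genes were called against 11.7% of all genes. Glul and Rlbp1 were detected on no array. The part of these cells in the Fabp3 difference was not tested.

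Fabp5, the epidermal-type FABP, is known from skin, where it carries fatty acids and can pass ligands to the nuclear receptor PPARδ. Its bright probe had unnormalized intensities of 1303.8 and 1871.2 in cKO and 1632.7 and 1662.1 in Control, so that the raw groups overlapped, with Control between the cKO arrays. Normalized log2 values were 9.94 and 10.37 in cKO and 10.86 and 11.25 in Control. On this scale both cKO arrays were below both Control arrays. The groups did not overlap, in either direction, for 62.3% of all genes tested. The group means were 10.15 ± 0.30 and 11.06 ± 0.28 (SD, n = 2). The difference was −0.90 ± 0.20 (log2, standard error), a 1.87-fold reduction in cKO (limma adjusted p = 0.0359).

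The Fabp5 reduction was lost under some ways of handling the brightness of the arrays. With no scaling between arrays the difference was −0.08, and the median of all genes was then 0.57, so Fabp5 lay −0.65 from that median. With a common median over all probes it was −0.12, with the median of all genes at 0.53, and again −0.65 from it. The call was kept with a common median over probes detected everywhere (−0.84, limma adjusted p = 0.0196). The median of all genes was then −0.19, and Fabp5 again lay −0.65 from it. It was also kept with cyclic loess (−0.88, limma adjusted p = 0.0353). The dim Fabp5 probe was 4.23 and 4.22 in cKO and 4.26 and 4.25 in Control, with detection p-values of 0.665 to 0.817, and measures no level. Averaging both probes gave −0.47 and ended the call. The call was also lost without cKO A (−0.70, limma adjusted p = 0.145), without cKO B (−1.13, 0.0776) or without Control B (−0.71, 0.134). Of 7 lens epithelium markers tested, 0 were elevated and Foxe3 and Pdpn were reduced, with summed levels of 7457 and 6666 in cKO and 8390 and 7088 in Control. Of 10 lens fiber markers tested, 0 were elevated and Bfsp2 (−0.76) and Birc7 (−1.45) were reduced, where 5.64% of all genes were reduced, with summed levels of 191949 and 180873 in cKO and 207406 and 207921 in Control. At an unadjusted p under 0.05 by limma, 0 epithelium markers were higher and 4 lower, and 0 fiber markers were higher and 3 lower, where 16.9% of all genes were higher and 15.1% lower. Of 6 cornea and skin epithelium markers, 4 were detected on cKO B, the cKO array with the higher Fabp5 value, and 0 on each of the others. Their summed level was 265 on cKO B against 163 to 167. The part of these cell types in the Fabp5 value was not tested.

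**Figure D3:**
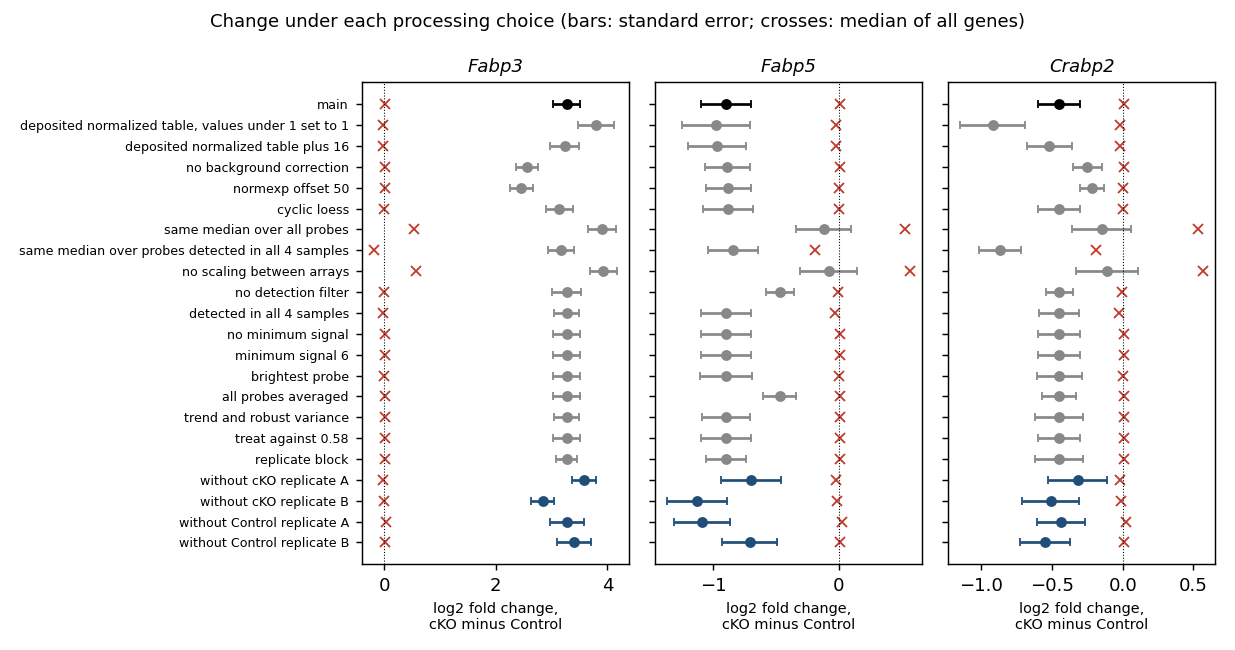
Log2 fold change (cKO minus Control, bars: standard error) of Fabp3, Fabp5 and Crabp2 under the reported processing (black), the alternatives with all 4 arrays (gray) and fits that leave out 1 array (blue), with the median of all genes as a red cross. Fabp3 stays between 2.46 and 3.93. Fabp5 and Crabp2 lie nearest to 0 where arrays were not scaled or were set to a common median over all probes, and there the median of all genes is 0.53 or 0.57.

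Crabp2 delivers retinoic acid to its receptors in the nucleus. Its unnormalized intensity was 54.4 and 62.2 in cKO and 64.2 and 53.9 in Control, and the groups overlapped. Detection p-values ran from 0.00855 to 0.0427, so the transcript was near the limit of detection on every array. Normalized log2 values were 4.63 and 4.85 in cKO and 5.23 and 5.16 in Control, where the dimmest detected probes of an array lay at 4.56 to 4.76. The difference was −0.45 ± 0.15 (log2, standard error), with group means of 4.74 ± 0.16 and 5.19 ± 0.049 (SD, n = 2), and did not pass the test (limma adjusted p = 0.0862). It passed in 1 of 17 settings with all 4 arrays, the common median over probes detected everywhere (−0.87, limma adjusted p = 0.0095). The median of all genes was then −0.19, and Crabp2 lay −0.68 from it.

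The remaining members gave no measurable level in either group. Fabp4, the FABP of adipocytes, macrophages and small vessels, had intensities of 42.8 and 45.9 in cKO and 37.5 and 35.4 in Control, with detection p-values of 0.443 or more. Vessel markers were present, with 8 to 9 of 10 genes detected on each array. Of 8 tested, Flt1 alone was called (0.70, limma adjusted p = 0.0251), or 12.5% against 11.7% of all genes. At an unadjusted p under 0.05 by limma, 4 were higher and 1 lower in cKO, or 62.5% against 31.9%. Of 6 adipocyte markers, 1 to 2 were detected on each array. Lep was detected on all 4 (4.62 to 5.02), and Cfd, Cidec, Plin1 and Retn on none. Fabp7, the FABP of developing brain and glia, had intensities of 46.1 and 46 in cKO and 43.1 and 35.1 in Control. Crabp1, the other retinoic acid carrier, had 39.8 and 40.3 in cKO and 42.5 and 36 in Control. Rbp4, the blood carrier of retinol, had 41.8 and 47.5 in cKO and 50.9 and 39.4 in Control, with a lowest detection p-value of 0.139 on Control A. With no filter on detection, none of these 4 passed the test, with limma adjusted p-values of 0.473 to 0.909. A level under the background of these probes cannot be seen on the arrays.

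Retinoid metabolism converts retinol to retinal and then to retinoic acid, which binds the receptors RAR and RXR and is broken down by CYP26 enzymes. Of 44 genes listed for this pathway, 42 were on the array and 21 were tested. By limma 0 were elevated, 2 were reduced and 19 were not called, with 8 higher and 13 lower in cKO. At an unadjusted p under 0.05, 3 were higher and 2 lower, or 23.8% against 31.9% of all genes. Their median difference was −0.044 against 0.0097 for all genes, and 9.52% were called against 11.7%. With no scaling between arrays, 8 were elevated and 1 was reduced, or 42.9% called against 50.3% of all genes. The median was then 0.39 for the list and 0.57 for all genes. Without cKO B or without Control B, 0 genes of the list were called, and 1 was without cKO A or without Control A.
Aldh1a7, a cytosolic aldehyde dehydrogenase related to retinal dehydrogenases, was 7.55 and 7.59 in cKO and 8.42 and 8.37 in Control (−0.82 ± 0.13, limma adjusted p = 0.0155). With no scaling between arrays its difference was 0.024, which was −0.55 from the median of all genes. Bco2, which cleaves carotenoids, was 5.58 and 5.42 in Control and was not above background in cKO, at least 1.9-fold lower (limma adjusted p = 0.0115). By the fitted difference, the most changed genes of the list that were not called were Tgm2, Rarb and Rdh10, and of these Rarb alone was detected in Control. Rarb, a retinoic acid receptor that is itself a known target of retinoic acid, was 6.53 on both cKO arrays and 6.16 and 5.91 in Control (0.49 ± 0.15, limma adjusted p = 0.0736). Tgm2, a transglutaminase that retinoic acid can induce, was detected in cKO alone at 4.73 and 5.21 and was at least 1.17-fold higher (limma adjusted p = 0.0748). Rdh10, which oxidizes retinol, was detected in cKO alone at 4.62 and 4.74 (limma adjusted p = 0.143). Stra6 is named after its values were seen, for its tie to a member. This membrane receptor for RBP4 was 5.54 and 5.32 in cKO and 5.56 and 5.64 in Control (−0.17, limma adjusted p = 0.458). Retina markers, from a tissue that uses retinoids, were detected for 2 and 4 of 11 genes in cKO and for 0 in Control, with summed levels of 328 and 334 against 312 and 309. Crx, Nrl, Sag, Rcvrn, Gnat1 and Prph2 were detected on no array, and the part of retina in the retinoid values was not tested.

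Fatty acids released by FABPs are activated, imported into mitochondria by carnitine palmitoyltransferases and oxidized, or stored as triglyceride in lipid droplets. Of 60 genes listed for fatty acid handling, 59 were on the array and 38 were tested. In cKO 3 were elevated, 4 were reduced and 31 were not called, with 24 higher and 14 lower. At an unadjusted p under 0.05 by limma, 9 were higher and 4 lower, or 34.2% against 31.9% of all genes. Their median difference was 0.11 against 0.0097 for all genes, and 18.4% were called against 11.7%. With no scaling between arrays, 23 were elevated and 0 reduced, or 60.5% called against 50.3% of all genes. The median was then 0.71 for the list and 0.57 for all genes. The number called was 0 without cKO B, 0 without Control B, 3 without cKO A and 7 without Control A.
Under the reported processing, genes of oxidation and of triglyceride synthesis were called in both directions. Cpt1b, the muscle form of the outer mitochondrial palmitoyltransferase, was 5.15 and 5.33 in cKO and was not above background in Control, at least 1.41-fold higher (limma adjusted p = 0.0232). Cpt2, its inner membrane partner, was 9.71 and 9.59 in cKO and 10.44 and 10.77 in Control (−0.96 ± 0.16, limma adjusted p = 0.0176). Etfdh, which passes electrons from fatty acid oxidation to the respiratory chain, was 6.53 and 6.56 in cKO and 5.90 and 5.51 in Control (0.84 ± 0.17, limma adjusted p = 0.0272). Decr1, which is needed to oxidize unsaturated fatty acids, was 5.72 and 5.58 in cKO and 6.43 and 6.17 in Control (−0.65 ± 0.16, limma adjusted p = 0.0416), and its call was lost whichever array was left out (limma adjusted p = 0.0754 to 0.258).
The enzymes DGAT1 and DGAT2 both make triglyceride. Dgat1 was 4.92 and 5.10 in cKO and not above background in Control, at least 1.21-fold higher (limma adjusted p = 0.0241), and Dgat2 was 7.51 and 7.30 in cKO and 8.44 and 8.76 in Control (−1.19 ± 0.17, limma adjusted p = 0.0107). Ppard, which encodes PPARδ, was 6.64 and 6.40 in cKO and 7.47 and 7.40 in Control (−0.92 ± 0.15, limma adjusted p = 0.0156). Ppard and Fabp5 were thus both reduced under the reported processing. With no scaling between arrays, the 4 reduced genes of the list ranged from −0.35 to 0.00064 (Dgat2 lowest, Decr1 highest), which was −0.92 to −0.57 from the median of all genes. With a common median over probes detected everywhere, 2 genes of the list were elevated and 5 reduced, or 18.4% called against 24.5% of all genes, when the median of all genes was −0.19. Cpt1b was then 0.28 (limma adjusted p = 0.191, 0.47 from that median) and Dgat1 was 0.17 (limma adjusted p = 0.445, 0.36 from it), and neither was called. The calls of Cpt1b and Dgat1 were also lost without Control B (limma adjusted p = 0.0816 and 0.081).
The most changed genes that were not called were Plin2, Acadl and Angptl4. Plin2, a coat protein of lipid droplets, was 6.80 and 6.99 in cKO and 6.35 and 5.62 in Control (0.91 ± 0.24, limma adjusted p = 0.0547). Acadl, a dehydrogenase of fatty acid oxidation, was 5.78 and 6.01 in cKO and 5.19 and 5.55 in Control (0.52 ± 0.17, limma adjusted p = 0.0933). Angptl4, an inhibitor of lipoprotein lipase, was 6.77 and 6.72 in cKO and 6.42 and 6.19 in Control (0.44 ± 0.15, limma adjusted p = 0.0948).

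**Figure D4:**
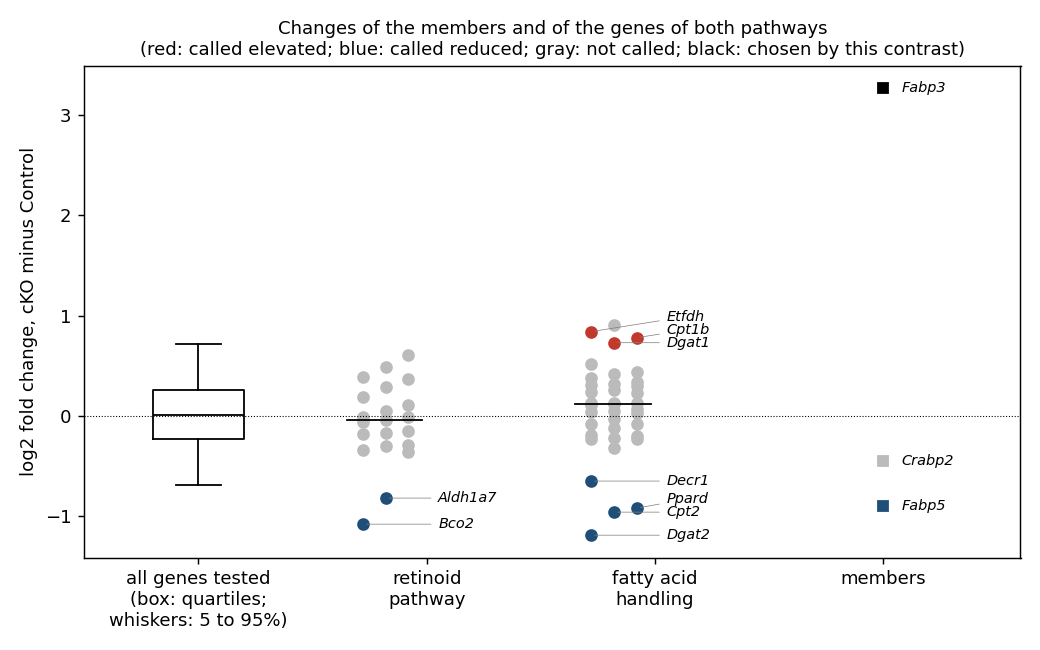
Log2 fold change (cKO minus Control) of all genes tested (box), of the 21 retinoid pathway genes and 38 fatty acid handling genes tested (points, black line: median) and of 3 members (squares, Fabp3 in black because this contrast chose it). Called genes of the lists are named, with 2 reduced in the retinoid list and 3 elevated and 4 reduced in the fatty acid list.

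The genes whose 4 log2 values, each centred on the gene's mean, lay nearest to those of Fabp3 were Hspb8, Thrsp, S100a1, Arhgap12 and Gpnmb. The measure was the Euclidean distance over 4 arrays, and since the arrays fall into the same groups that chose Fabp3, the likeness is a description. Hspb8, a small heat shock protein, was nearest at a distance of 0.239, with 9.57 and 9.97 in cKO and 6.55 and 6.52 in Control. Thrsp, a nuclear protein tied to fatty acid synthesis, followed at 0.539, with 8.40 and 9.24 in cKO and 6.14 and 5.96 in Control. S100a1, a calcium-binding protein known from heart muscle, was at 0.542, with 8.19 and 9.22 in cKO and 5.74 and 5.09 in Control. Arhgap12, a regulator of small GTPases, was at 0.628, with 7.73 and 7.94 against 4.84 and 5.21. Gpnmb, a membrane glycoprotein of macrophages and melanocytes, was at 0.646 and was detected in cKO alone, at 6.46 and 7.61, at least 4.9-fold above Control. Like Fabp3, all 5 were higher on cKO B than on cKO A, an order that the choice by distance favors.

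**Figure D5:**
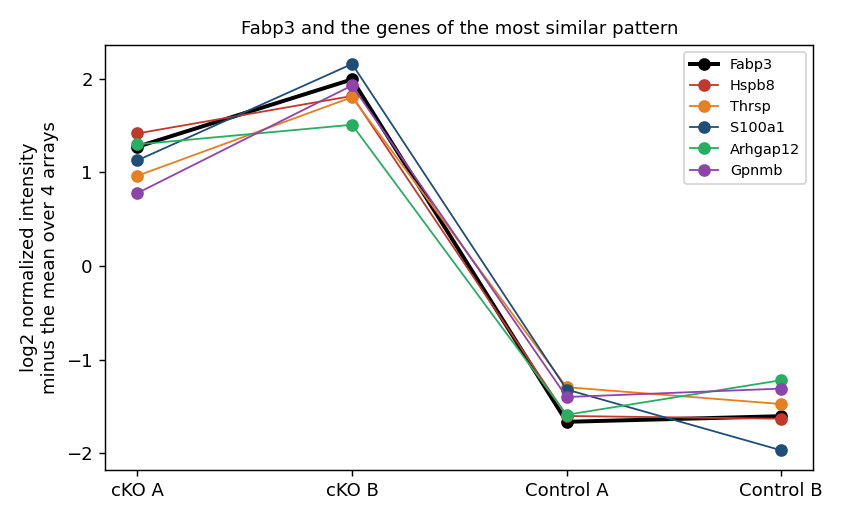
Log2 normalized intensity of Fabp3 (thick black line) and the 5 genes of the most similar pattern on each array, minus the gene's mean over the 4 arrays. All 6 are above their mean on both cKO arrays, higher on cKO B than on cKO A, and below it on both Control arrays. The choice by distance favors this shared pattern.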

How the data were processed

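RNA of 4 mouse lenses (n = 2 per group) was measured on Illumina arrays. The authors deposited unnormalized and rank-invariant normalized intensity for each probe, with a detection p-value (the deposited p-value ranks a probe against negative control beads). Of 45281 probes, 18 with shifted cells were left out. Unnormalized intensity was background-corrected with neqc of limma 3.58.1 in R 4.3.3 (offset of 16, quantile normalization, log2). Probes detected (p-value below 0.05) on 2 or more arrays, 16262 in all, were averaged to 11516 genes. The cKO and Control values of each gene were then tested by lmFit and eBayes, two-sided, with Benjamini-Hochberg adjustment. The authors used edgeR, a count model, on array signal, which was not applied here. Tables were read with Python 3.11.15. Genes were named through RefSeq (GRCm38.p6), and 8334 probes kept the symbol of the files.

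A bound ("at least N-fold") sets the brighter group's mean against the dimmer group's mean of the lowest detected signal or the gene's own, whichever was higher. Named genes were the members, Celf1, Xist, Ddx3y, called genes and the 3 most changed uncalled genes of each pathway list, and the 5 genes most like Fabp3. Stra6 and single cell type markers were named with their values known. Members and lists were chosen with earlier results of these data known. The methods of the study count each lens as a biological replicate. The number of arrays limits the precision. The fit was tested on simulated data.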

Additional observations from a re-analysis of the deposited data

How the results depend on the processing

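The direction of Fabp3, Fabp5 and Crabp2 was the same in all 17 alternatives with all 4 arrays and in the 4 fits that left out 1 array. With the deposited normalized table and values under 1 set to 1, 7 genes were called against 1342, none of them a member (0) or in either pathway list (0 and 0), at 3.80 for Fabp3 and −0.98 for Fabp5. Fabp3 was chosen by this contrast, so a count of members that includes it, here or below, is no test of it. A test against a change of 0.58 (treat) called 83 genes (0.721% of genes tested) and 0 of either list, with Fabp5 at −0.90 and not called. With no detection filter, 207 genes (0.718%), 1 retinoid and 0 fatty acid genes were called, and averaging all probes called 883 genes (7.67%). Fabp5 was at −0.47 and not called in both. A background offset of 50 called 789 genes (1 retinoid, 3 fatty acid), a minimum signal of 6 called 880 (1 retinoid, 4 fatty acid), and detection in all 4 samples called 1 retinoid gene.

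Scaling mattered most for direction. A common median over all probes called 5417 genes (5273 elevated, 144 reduced), or 47% of genes tested. It called 9 retinoid (42.9%) and 21 fatty acid genes (55.3%), with Fabp5 at −0.12 and not called. No scaling called 5789 (5656 and 133), or 50.3% of genes tested, with 9 retinoid (42.9%) and 23 fatty acid genes (60.5%). Fabp5 was then at −0.08 and not called, Decr1 at 0.00064 and Aldh1a7 at 0.024. A common median over probes detected everywhere called 2822 (669 and 2153), moved the median of all genes to −0.19, and called 4 retinoid genes and Crabp2 (−0.87). The cause of these shifts was not tested.

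Leaving out 1 array gave 163 to 1356 called genes (dropping cKO A gave 594, cKO B 163, Control B 171 and Control A 1356), 1 to 2 members, 0 to 1 retinoid genes and 0 to 7 fatty acid genes. Fabp3 ranged from 2.84 to 3.58, Fabp5 from −1.13 to −0.70 and Crabp2 from −0.55 to −0.32. In these fits the lone array was assumed to vary like the other group. The replicate letters share only a name (the correlation of the differences A minus B between groups was −0.0112). With the letter as a replicate block, 1675 genes (14.5%), 3 retinoid (14.3%) and 8 fatty acid genes (21.1%) were called, with Fabp5 at −0.90 (limma adjusted p = 0.00606). Signal over background limits Crabp2, the Control level of Fabp3 and the members that were not detected.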
